A study of Mus musculus with 4 samples.

Results

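The transcripts described here encode receptors for bone morphogenetic proteins (Bmpr1a, Bmpr1b and Bmpr2), the Smad proteins that carry their signal (Smad1, Smad4 and Smad5) and the Id proteins, whose genes are among the best known targets of the pathway (Id1, Id2, Id3 and Id4). They are 10 of 53379 genes in the deposited table, were chosen by name with earlier results of these data known, and were all found there. RNA was recovered with an antibody against Cpeb4, an RNA-binding protein of the cytoplasmic polyadenylation family, or with control IgG. The tissue was the ventricular-subventricular zone (V-SVZ), the germinal layer beside the lateral ventricles, taken from wild-type mice of the CD1 strain at postnatal day 7 or 8. In each of 2 experiments both antibodies were used, which gave 2 Cpeb4 and 2 IgG libraries. Whether the experiments came from separate or pooled animals is not stated in the labels, so the spread between libraries may be technical. A library of the lysate before precipitation was not analysed here.

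Bone morphogenetic proteins are secreted ligands that bring type I receptors such as Bmpr1a and Bmpr1b together with the type II receptor Bmpr2. The active type I receptor phosphorylates Smad1 and Smad5, which enter the nucleus with the common partner Smad4 and switch on genes that include those of the Id family. Id proteins hold a helix-loop-helix domain without a DNA-binding region and keep proneural transcription factors from their E protein partners. In the V-SVZ this pathway is known for its part in stem cell quiescence and in the choice between neurons and glia.

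The libraries held 24483742 to 35037171 reads on genes with Cpeb4 and 22486721 to 24094241 with IgG, and each of the 10 transcripts had at least 179 reads in every library. Levels are given as FPKM, fragments per kilobase of gene with depth scaled by the authors, and can therefore be compared between genes. Neuroblast transcripts were present with both antibodies, such as Dcx at 64.5 and 78.2 FPKM with Cpeb4 and 23.6 and 23.2 FPKM with IgG. So were those of stem cells and astroglia, such as Gfap at 105 and 100.3 FPKM with Cpeb4 and 95.02 and 92.4 FPKM with IgG. The change differed among markers of each type. The neuroblast marker Tubb3 was at 149 and 124 FPKM with Cpeb4 and 141 and 143 FPKM with IgG. The astroglial marker Aqp4 was at 122 and 157 FPKM with Cpeb4 and 32.4 and 30.4 FPKM with IgG. Counts over the full lists are given below. The Cpeb4 mRNA itself was at 26.7 and 38.3 FPKM in the Cpeb4 libraries, against 9.04 and 9.66 FPKM in the IgG libraries.

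The comparison of Cpeb4 with IgG asked which of these transcripts came down with Cpeb4 above the background of the control antibody. Transcripts of all 3 receptors and all 3 Smads rose in the Cpeb4 immunoprecipitates, by 1.602 to 3.95-fold on the FPKM + 1 scale, which all folds here use. The Id family was divided. Id4 rose 2.54-fold and Id2 1.68-fold, while Id3 and Id1 were at 1.09 and 0.959 times their IgG level and were not called. In limma's test across 15745 genes, 8 of the 10 were called higher and 0 lower, a call being an adjusted p below 0.05. None of the 10 was lower at an unadjusted p below 0.05 either. Among all tested genes, 38.8% were higher and 11.6% lower. The median log2 fold change was 1.06 over the 10 transcripts and 0.19 over all tested genes.

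**Figure D1:**
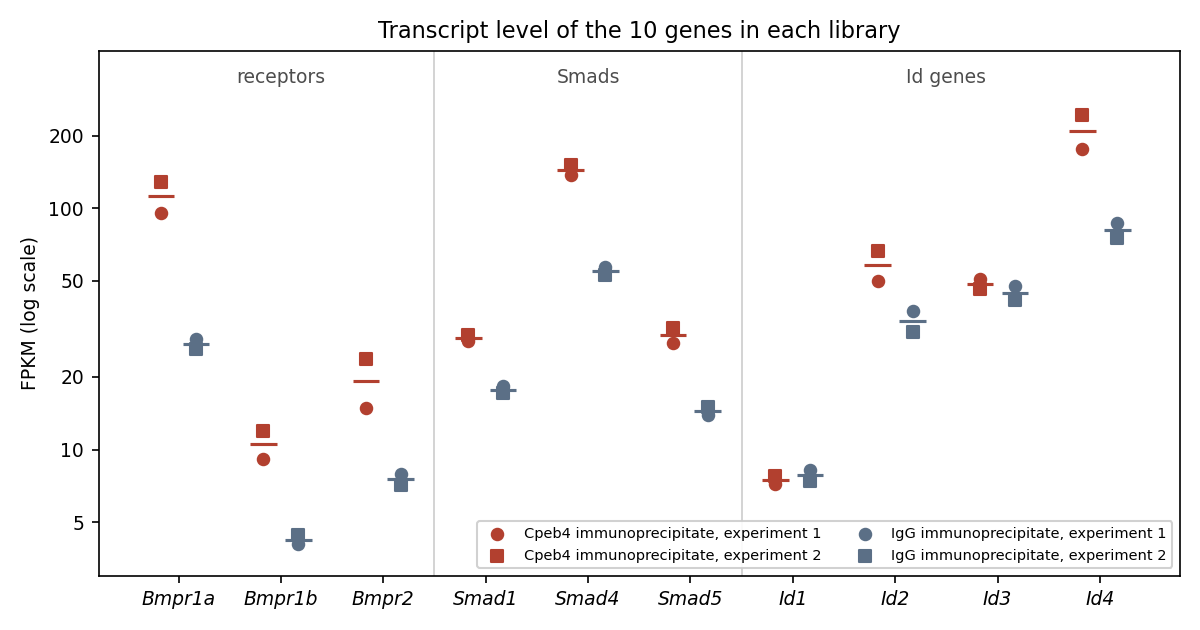
Level of each transcript in FPKM on a log scale, in each Cpeb4 library (red) and each IgG library (blue); circles are experiment 1, squares experiment 2 and bars the mean of 2 libraries. The Cpeb4 points lie above both IgG points for 8 transcripts, while those of Id1 and Id3 overlap.

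The lowest Cpeb4 library lay above the highest IgG library for those 8 transcripts, as it did for 53.2% of tested genes, while 22.7% of tested genes had both Cpeb4 libraries below both IgG libraries. Other ways of scaling the libraries move all genes together, to a median log2 fold change of -0.24 when libraries are set to equal read totals. With 5 scalings compared, Bmpr1a, Bmpr1b, Bmpr2, Smad4, Smad5 and Id4 were called higher under each, 6 of 10 where 17.5% of tested genes were. Members higher and lower numbered 6 and 2 with read totals, beside 17.5% and 42.4% of tested genes, and 6 and 2 by upper quartile, beside 19.6% and 37%. They numbered 8 and 0 with trimmed mean of M-values, beside 25.6% and 25.6%, and 8 and 1 with the median of tested genes, beside 23.6% and 29.9%. The count was 8 and 0 with limma-voom on recovered reads, beside 40.6% and 12.1%, and with a mean of at least 50 reads, beside 45.1% and 10.8%. The authors' deposited table gave 8 and 0 as well, beside 21.7% and 4.93% of its genes.

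Relative to the median tested gene, each value moved by less than 0.1 over the 5 scalings. Bmpr1a stood 1.71 to 1.80 above it on the log2 scale, Smad4 1.10 to 1.19, Id4 1.07 to 1.16, Bmpr2 0.98 to 1.03 and Bmpr1b 0.92 to 0.94. Smad5 stood 0.73 to 0.80 above it, Id2 0.48 to 0.56 and Smad1 0.42 to 0.49. Id3 and Id1 were at -0.15 to -0.07 and at -0.28 to -0.25, below the median tested gene.

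**Figure D2:**
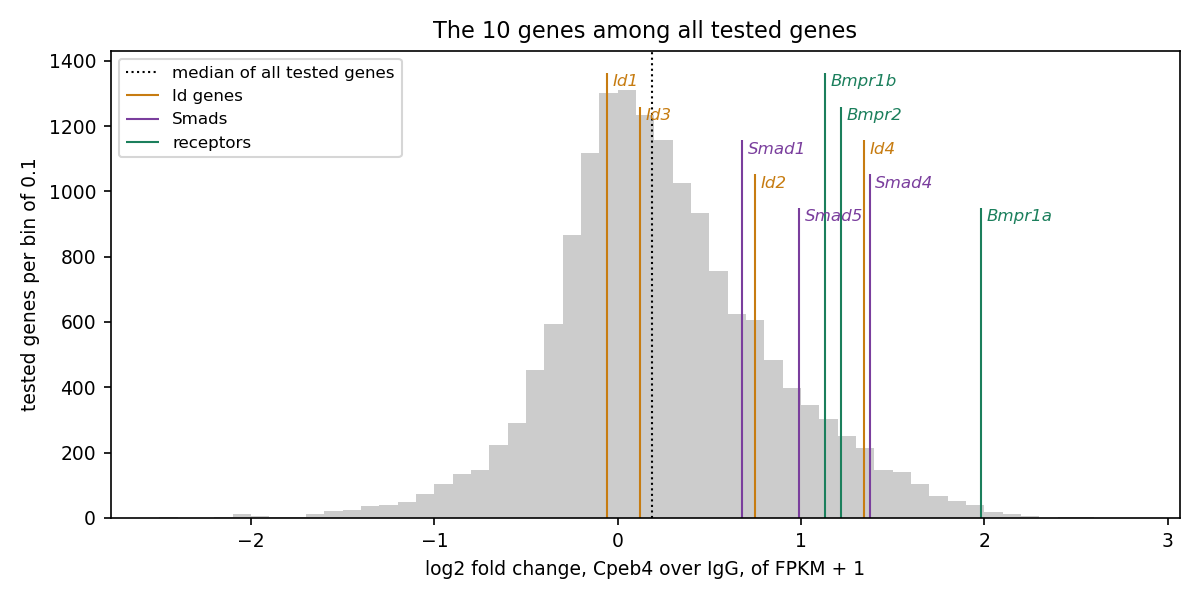
Histogram of the log2 fold change (Cpeb4 over IgG, on the FPKM + 1 scale) of the 15745 tested genes, with a vertical line for each of the 10 transcripts and a dotted line at the median of all tested genes, 0.19. Bmpr1a lies in the far right of the distribution at 1.98, and Id1 and Id3 lie near its peak at -0.06 and 0.12.

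Among the receptors, the type I receptor Bmpr1a (chromosome 14, 34411061 to 34503336, GRCm38.p6) had the largest change of the 10. It was at 95.96 and 129 FPKM in the Cpeb4 libraries of experiments 1 and 2, against 28.8 and 26.1 FPKM in the IgG libraries. Both Cpeb4 libraries were more than 3 times as high as either IgG library. The log2 fold change was 1.98 with an SE of 0.14 (adjusted p = 5.67e-08, limma), and 44 of the 15745 tested genes had a larger one. That of the Cpeb4 mRNA was 1.67 with an SE of 0.13, and 222 genes had a larger one. The log2 difference of Bmpr1a was 1.70 in experiment 1 and 2.26 in experiment 2. Each SE given here is moderated by limma. With 1 residual and 14.6 prior degrees of freedom, it rests mostly on the spread of other genes.

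Bmpr1b, the other type I receptor (chromosome 3, 141837135 to 142169585), was much less abundant. It had 9.12 and 11.95 FPKM with Cpeb4 and 4.06 and 4.404 FPKM with IgG, with no overlap. It was higher by 1.13 on the log2 scale (SE 0.13, limma adjusted p = 3.03e-06). The type II receptor Bmpr2 (chromosome 1, 59764279 to 59878081) had 14.9 and 23.8 FPKM with Cpeb4 and 7.95 and 7.12 FPKM with IgG. The groups did not overlap, and the log2 difference was 0.83 in experiment 1 and 1.61 in experiment 2. Over both it was 1.22 (SE 0.16, limma adjusted p = 8.94e-06).

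Of the Smads, the common partner Smad4 was the most abundant and changed most. It was at 138 and 151 FPKM in Cpeb4 immunoprecipitates, against 57.2 and 53.01 FPKM in IgG. The libraries of each antibody lay close together and the groups far apart, with a log2 difference of 1.38 (SE 0.13, limma adjusted p = 4.86e-07). Smad5, which the type I receptors phosphorylate (chromosome 13, 56703010 to 56742378), had 27.6 and 31.98 FPKM with Cpeb4 and 13.9 and 15.1 FPKM with IgG. The groups did not overlap, and Smad5 was higher by 0.99 on the log2 scale (SE 0.12, limma adjusted p = 5.39e-06). The difference was nearly the same in both experiments, 0.94 and 1.04.

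Smad1, the other receptor-activated Smad of this set (chromosome 8, 79338395 to 79399428), had 28.1 and 29.9 FPKM with Cpeb4 and 18.3 and 17.1 FPKM with IgG. It rose least of the receptors and Smads, by 0.68 on the log2 scale (SE 0.12, limma adjusted p = 0.000236). Scaling to read totals ended the call (log2 difference 0.19, limma adjusted p = 0.253), as did scaling by upper quartile (0.25, limma adjusted p = 0.0943). Removing a trend of the fold changes on gene length and level ended it too (0.18, limma adjusted p = 0.241).

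**Figure D3:**
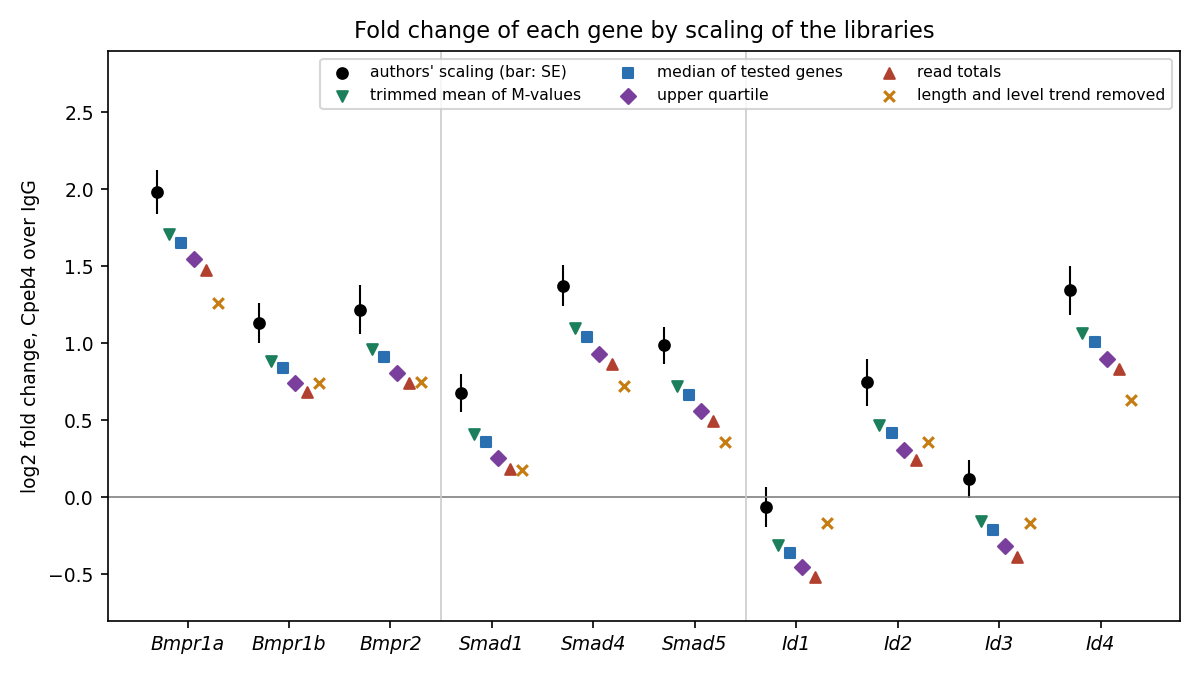
Log2 fold change of each transcript (Cpeb4 over IgG) with the authors' scaling (circles, bars are the standard error from limma), with 4 other scalings, and with the trend on gene length and level removed (crosses). Every setting shown keeps the receptors, the Smads, Id2 and Id4 above 0, though Smad1 and Id2 were not called in all of them. Id3 changes sign, at 0.12 with the authors' scaling and -0.39 with read totals.

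Id4, known from neural stem cells of the adult hippocampus as a factor that holds them in quiescence, was the most abundant of the 10 transcripts (chromosome 13, 48261116 to 48266028). It had 177 and 243 FPKM in Cpeb4 immunoprecipitates, against 87.2 and 75.2 FPKM in IgG. Each Cpeb4 library was above both IgG libraries, with a log2 difference of 1.01 in experiment 1 and 1.68 in experiment 2. Over both it was 1.34 (SE 0.16, limma adjusted p = 3.41e-06).

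Id2 (chromosome 12, 25093799 to 25096092), another inhibitor of proneural factors, rose less. It had 50.03 and 66.6 FPKM with Cpeb4 and 37.6 and 30.7 FPKM with IgG, without overlap, a log2 difference of 0.75 (SE 0.15, limma adjusted p = 0.000614). The experiments differed here too, at 0.40 and 1.09. Leaving out IgG replicate 2 ended the call (0.61, limma adjusted p = 0.0669), as did read totals (0.24, limma adjusted p = 0.136) and upper quartile (0.31, limma adjusted p = 0.0931). It also ended when genes with low values were kept (limma adjusted p = 0.0775) and when the length and level trend was removed (0.36, limma adjusted p = 0.0516).

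Id3 (chromosome 4, 136143822 to 136145392), which like Id1 is also known from endothelial cells, was at 50.7 and 46.5 FPKM in the Cpeb4 libraries and 47.7 and 41.7 FPKM in the IgG libraries. The groups overlapped and Id3 was not called, with a log2 difference of 0.12 (SE 0.12, limma adjusted p = 0.445). Id1 (chromosome 2, 152736251 to 152737410) was at 7.19 and 7.77 FPKM with Cpeb4 and 8.26 and 7.44 FPKM with IgG. These groups overlapped as well, and Id1 was not called, with a log2 difference of -0.06 (SE 0.13, limma adjusted p = 0.725). With read totals both were called lower, Id1 at -0.52 and Id3 at -0.39 (limma adjusted p = 0.000836 and 0.0151), where 42.4% of all tested genes were. Id1 rested on the fewest reads, 256 and 179 with Cpeb4 and 278 and 234 with IgG.

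The 250 bases before the annotated start of 3 Id genes are shown because the Id genes are direct targets of the pathway and their transcripts differed here. The sequences are from RefSeq (GRCm38.p6), read 5′ to 3′ on the gene's strand, with the motif GGCGCC, a GC-rich Smad-binding sequence, in capitals. The Id4 window is chr13:48260866-48261115 on the plus strand, the Id2 window chr12:25096093-25096342 on the minus strand and the Id3 window chr4:136143572-136143821 on the plus strand.
Id4: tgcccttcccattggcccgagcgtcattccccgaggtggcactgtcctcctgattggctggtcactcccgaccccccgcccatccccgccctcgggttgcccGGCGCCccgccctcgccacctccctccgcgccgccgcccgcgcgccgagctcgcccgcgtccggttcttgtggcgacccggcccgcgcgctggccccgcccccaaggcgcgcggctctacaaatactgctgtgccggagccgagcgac
Id2: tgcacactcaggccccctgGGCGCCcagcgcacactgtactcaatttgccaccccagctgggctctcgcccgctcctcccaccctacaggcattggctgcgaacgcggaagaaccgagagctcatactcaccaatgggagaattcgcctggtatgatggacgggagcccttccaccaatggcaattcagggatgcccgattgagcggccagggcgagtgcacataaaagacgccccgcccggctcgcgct
Id3: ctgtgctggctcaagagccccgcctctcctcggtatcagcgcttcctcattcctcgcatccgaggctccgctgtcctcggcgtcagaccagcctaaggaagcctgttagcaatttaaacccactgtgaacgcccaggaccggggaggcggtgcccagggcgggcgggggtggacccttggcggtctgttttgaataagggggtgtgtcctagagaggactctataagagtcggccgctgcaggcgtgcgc
The Id4 window holds GGCGCC from its base 103 on and the Id2 window from its base 20 on, while the Id3 window does not hold these letters. The motif reads the same on both strands and was found in 9.59% of 32851 windows of the same length. Windows of 8 of the 10 members were examined, 12 in all. Those of Id1 and Smad4 were not examined, so the counts of members with a motif do not cover them. The windows shown therefore hold 1 of the 2 Id genes that were not called. Of the 8 members 5 held the motif in at least 1 window, namely Bmpr1a, Bmpr2, Smad5, Id2 and Id4, where 10.8% of 27025 genes did. Member windows with the motif held 62.8% to 78.8% G and C, and those without it 46.8% to 68.4%. The part of base composition in these matches was not tested. GTCTAGAC, another Smad motif that reads the same on both strands, was in 0.167% of all windows and in those of 0 members. Immunoprecipitation of RNA does not measure promoters, so the matches describe the genes and no result rests on them.

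Ratios of transcripts within a library do not depend on how libraries are scaled. The ratio of Id4 to Id1 was 24.6 and 31.2 in the Cpeb4 libraries, against 10.6 and 10.1 in the IgG libraries. The ratio of Id4 to Id3 was 3.48 and 5.22 with Cpeb4 and 1.83 and 1.803 with IgG. Neither ratio overlapped between the antibodies. Id4 made up 62.1% and 66.8% of the summed FPKM of the Id family in the Cpeb4 libraries, and 48.2% and 48.5% in the IgG libraries. Id3 made up 17.8% and 12.8% with Cpeb4 and 26.4% and 26.9% with IgG. The share of Id2 lay closer, at 17.6% and 18.3% with Cpeb4 and 20.8% and 19.8% with IgG, and Id1 held the smallest share with both antibodies.

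The receptor and Smad sums shifted too. Bmpr1a gave 79.98% and 78.3% of the receptor sum with Cpeb4, against 70.6% and 69.4% with IgG. The ratio of Bmpr1a to Bmpr2 was 6.44 and 5.42 with Cpeb4 and 3.62 and 3.67 with IgG. Between Bmpr2 and Bmpr1b the ratio was 1.63 and 1.99 with Cpeb4 and 1.96 and 1.62 with IgG, so these groups overlapped. Smad4 gave 71.2% and 70.97% of the Smad sum with Cpeb4, against 63.9% and 62.2% with IgG. The ratio of Smad4 to Smad1 was 4.91 and 5.06 with Cpeb4 and 3.12 and 3.098 with IgG. With 2 libraries against 2 no exact permutation test can pass 0.05, so these ratios are given without a test.

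**Figure D4:**
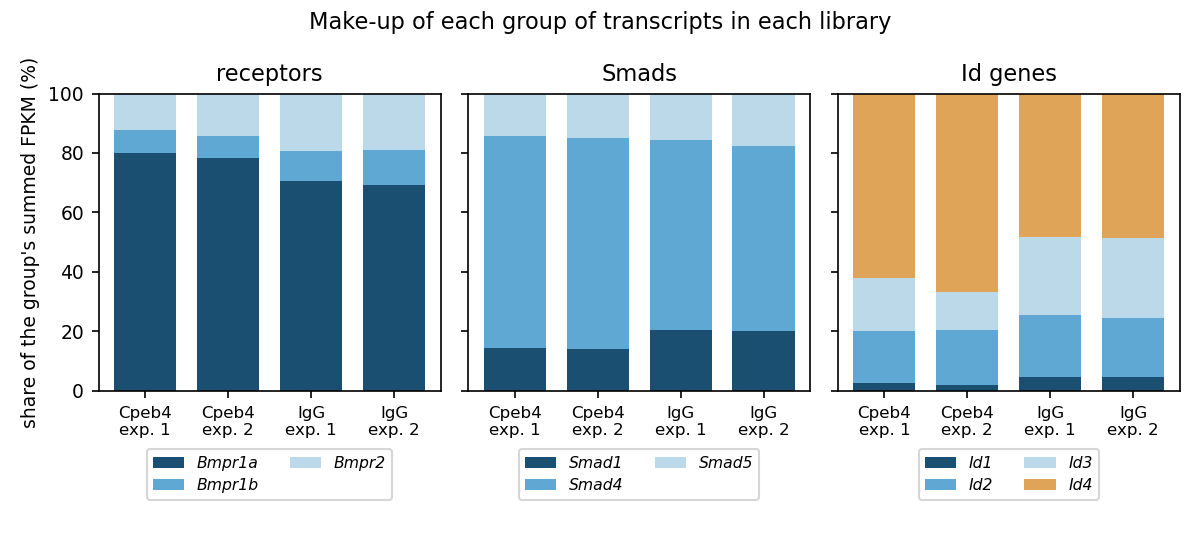
Share of each transcript in the summed FPKM of its group, in percent, as stacked bars for each Cpeb4 and IgG library, for receptors, Smads and Id genes. Id4 takes 62.1% and 66.8% of the Id sum in the Cpeb4 bars and 48.2% and 48.5% in the IgG bars, and Bmpr1a and Smad4 also take larger shares in the Cpeb4 bars.

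In order of level per gene length, the Cpeb4 immunoprecipitates held Id4, Smad4, Bmpr1a, Id2, Id3, Smad5, Smad1, Bmpr2, Bmpr1b and Id1, from 209.7 ± 46.8 to 7.48 ± 0.413 FPKM (mean ± SD, n = 2). Neighbours whose libraries overlapped were Id2 with Id3 and Smad5 with Smad1. In the IgG immunoprecipitates the order was Id4, Smad4, Id3, Id2, Bmpr1a, Smad1, Smad5, Id1, Bmpr2 and Bmpr1b, from 81.2 ± 8.49 to 4.23 ± 0.245 FPKM (mean ± SD, n = 2). Here Id1 and Bmpr2 overlapped. Id4 and Smad4 led with both antibodies, Bmpr1a stood at the third place with Cpeb4 and at the fifth with IgG, and Id1 stood last with Cpeb4.

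Gene length differed among the members and is given as implied by the FPKM and the recovered reads, as a ratio to the median tested gene. It was 4.22 for Bmpr2, 2.16 for Smad5, 1.95 for Bmpr1a, 1.75 for Bmpr1b, 1.26 for Id4, 1.24 for Smad1 and 1.11 for Smad4. It was below the median for Id2 (0.645), Id3 (0.418) and Id1 (0.3798), which were also the Id genes with the smaller changes. Over all the members the order by length was not the order by change. The part of length in these changes was not tested. With a trend of the fold change on length and level removed, Bmpr1a was at 1.26, Bmpr2 at 0.75, Bmpr1b at 0.74, Smad4 at 0.72, Id4 at 0.63 and Smad5 at 0.36 on the log2 scale. These 6 were called higher (limma adjusted p between 2.73e-06 and 0.0217) and 0 were called lower, where 23.9% and 25.4% of the genes in that fit were. Id3 and Id1 were both at -0.17 and not called.

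Of 92 other genes of the pathway, listed by role, 75 were abundant enough to be tested. Of these, 48 were higher and 3 lower, which is 64% and 4% beside 38.8% and 11.6% of all tested genes. Their median log2 fold change was 0.49. Under all 5 scalings 22 were higher, 29.3% beside 17.5% of all tested genes. The same shares of all tested genes are the background for the counts by role, which rest on 6 to 25 genes each.

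Of the 10 tested genes listed as ligands, among them the protease Bmp1 (not called), 5 were higher and 1 lower, and 0 were higher under all 5 scalings. The activin subunits Inhbb and Inhba were at log2 differences of 0.48 and 0.45 (adjusted p by limma = 0.00415 and 0.00875), calls that each of the other 4 scalings, leaving out either IgG library, keeping genes with low values and removing the length and level trend ended. Bmp7 was lower, at 3.28 and 2.43 FPKM with Cpeb4 and 6.19 and 5.81 FPKM with IgG, a log2 difference of -0.87 (SE 0.14, limma adjusted p = 7.02e-05). Of 16 extracellular modulators, 11 were higher and 0 lower, and 6 were higher under all 5 scalings. Twsg1, a secreted protein that binds these ligands, was at 90.8 and 107 FPKM with Cpeb4 and 28.1 and 26.5 FPKM with IgG, a log2 difference of 1.81 (SE 0.13, limma adjusted p = 5.67e-08). Fstl5, of the follistatin-like proteins, followed at 1.35 (SE 0.13, limma adjusted p = 4.16e-07).

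Of 10 activin and TGF-beta receptors, 7 were higher and 1 lower, and 3 were higher under all 5 scalings. The type I receptor Tgfbr1 was at 52.6 and 73.95 FPKM with Cpeb4 and 16.5 and 15.6 FPKM with IgG, a log2 difference of 1.90 (SE 0.14, limma adjusted p = 6.74e-08). Acvr2a, a type II receptor that also binds bone morphogenetic proteins, was at 1.42 (SE 0.14, limma adjusted p = 5.66e-07). The endothelial co-receptor Eng was lower, at -0.49 (SE 0.14, limma adjusted p = 0.00738). That call ended without IgG replicate 1 (limma adjusted p = 0.0619), without IgG replicate 2 (limma adjusted p = 0.1) and when genes with low values were kept (limma adjusted p = 0.0878).

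Of 25 further Smads and Smad regulators, 16 were higher and 1 lower, and 9 were higher under all 5 scalings. Skil, a co-repressor that binds Smads, was at a log2 difference of 1.44 (SE 0.14, limma adjusted p = 6.01e-07), and Zranb2 at 1.36 (SE 0.14, limma adjusted p = 7.48e-07). Peg10, a gene derived from a retrotransposon, was lower, at -0.73 (SE 0.15, limma adjusted p = 0.000788). That call ended without IgG replicate 2 (limma adjusted p = 0.0838).

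The proteins that Id factors bind are E proteins, and of 8 E protein and partner genes 7 were higher and 0 lower, and 3 were higher under all 5 scalings. Tcf12 was at 27.2 and 30.9 FPKM with Cpeb4 and 12.4 and 12.9 FPKM with IgG, a log2 difference of 1.13 (SE 0.12, limma adjusted p = 1.45e-06). Tcf4 was at 0.89 (SE 0.13, limma adjusted p = 2.52e-05), a call that ended once the length and level trend was removed (0.16, limma adjusted p = 0.303). Of 6 further transcriptional targets, 2 were higher and 0 lower, and 1 was higher under all 5 scalings. The 2 called with the authors' scaling were the neuroblast factor Sox4 at 1.53 (SE 0.13, limma adjusted p = 2.11e-07) and Hey1, a repressor also used by Notch, at 0.57 (SE 0.12, limma adjusted p = 0.00102). The Hey1 call ended under each of the other 4 scalings, once the length and level trend was removed (limma adjusted p = 0.0936) and without IgG replicate 2 (limma adjusted p = 0.0507).

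Among 7924 genes with clear expression, the profile over the 4 libraries nearest to the mean of the 3 receptors was that of Trove2 (distance 0.0116 on the log2 scale), followed by Galnt13 (0.0219) and Acvr2a (0.0224). Nearest to the mean of the Smads were Ergic2, Seh1l and Pik3ca (0.022 to 0.0249), and to that of the Id genes Rab2a, Hpf1 and Syf2 (0.0347 to 0.0438). With 4 libraries and 7924 genes to choose from, small distances are bound to occur, so these names are descriptions only. The Id mean is that of a divided family and need not resemble any of its members.

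Markers of 9 cell types that the tissue could hold were measured with the authors' scaling. Of 54 markers 52 were tested and 20 were higher and 12 lower, which is 38.5% and 23.1% beside 38.8% and 11.6% of all tested genes. Of 8 tested stem cell and astroglial markers 6 were higher and 1 lower, and the sum over the 8 listed was 1171 and 1270.5 FPKM with Cpeb4 and 704 and 679.7 FPKM with IgG. Of 6 tested oligodendrocyte lineage markers 5 were higher and 0 lower, and the sum over the 6 listed was 448 and 421 FPKM with Cpeb4 and 305 and 296 FPKM with IgG. Of 6 tested neuroblast markers 4 were higher and 0 lower, and the sum over the 6 listed was 527 and 535 FPKM with Cpeb4 and 364 and 364 FPKM with IgG. Of 5 tested transit amplifying and cycling markers 3 were higher and 1 lower, and the sum over the 5 listed was 64.8 and 68.9 FPKM with Cpeb4 and 53.2 and 52.9 FPKM with IgG. With the authors' scaling, sums of these 4 cell types of the neural lineage were higher in both Cpeb4 libraries than in both IgG libraries. The sums were not taken under the other scalings. Those scalings lower Cpeb4 against IgG, to a median log2 fold change of -0.24 over all tested genes with read totals, from 0.19. The direction of these sums may therefore not hold there. Under all 5 scalings, 3 stem cell and astroglial and 3 neuroblast markers were higher. The count was 0 for oligodendrocyte lineage markers and 0 for transit amplifying and cycling markers. Over all tested markers 15.4% were higher under all 5 scalings, beside 17.5% of all tested genes. Of 5 tested mural markers 1 was higher and 0 lower, and the sum over the 5 listed was 60.9 and 66.4 FPKM with Cpeb4 and 46.4 and 44.8 FPKM with IgG. Of 6 tested microglial markers 1 was higher and 2 lower, and the sum over the 6 listed was 136 and 136 FPKM with Cpeb4 and 120.1 and 112 FPKM with IgG. Both of these sums were also higher in the Cpeb4 libraries with the authors' scaling, and the same limit applies. The median log2 difference was -0.04 for mural and -0.08 for microglial markers. The 1 mural marker called higher was Rgs5, at means of 39.3 FPKM with Cpeb4 and 19.5 FPKM with IgG. The 1 microglial marker called higher was P2ry12, at means of 60.5 and 25.1 FPKM. Of 5 tested ependymal markers 0 were higher and 3 lower, and the sum over the 5 listed was 53.9 and 45.9 FPKM with Cpeb4 and 64.2 and 64.9 FPKM with IgG. Of 6 tested endothelial markers 0 were higher and 2 lower, and the sum over the 7 listed was 38.1 and 30.9 FPKM with Cpeb4 and 41.8 and 40.2 FPKM with IgG. Of 5 tested choroid plexus and blood markers 0 were higher and 3 lower, and the sum over the 6 listed was 229.5 and 204 FPKM with Cpeb4 and 291 and 264 FPKM with IgG. The ependymal, endothelial and choroid plexus and blood sums were lower in both Cpeb4 libraries than in both IgG libraries. In the last list the 3 markers called lower were the blood genes Hba-a1, Hbb-bs and Alas2. The choroid plexus markers Ttr and Folr1 were not called, at means of 64.7 and 1.94 FPKM with Cpeb4 and 54.6 and 1.97 FPKM with IgG. Of all the markers, 0 were at 0 in all libraries. Their part in the results was not tested. Both antibodies were used in each experiment, and these levels are of precipitated RNA, so they do not measure numbers of cells. Recovery by the antibody, numbers of cells of a type and RNA per cell cannot be told apart in these libraries.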

How the data were processed

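RNA from Cpeb4 and IgG immunoprecipitates of the V-SVZ was measured in 4 libraries. Per the labels' protocols, the MAGNA RIP kit, SMART-Seq v4 low input cDNA synthesis and Nextera XT library preparation were used; these kits do not mark strand. Trim Galore 0.5.0, STAR 2.6.0c, HTSeq 0.6.1p2, DESeq2 1.26.0 and mm10 appear, without roles, in the submitters' processing notes. Per the file headers, the authors deposited FPKM for each library. They also deposited a comparison that holds a mean level (signal: reads over size factors), log2 fold changes and their errors, a test score and p-values. Filters are not given in the sources used here.

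Whole reads were recovered from the steps of the FPKM (100% of values within 0.01 read, 30361 genes). Genes that reached 1 FPKM in 2 or more libraries were tested with limma 3.58.1 (R 4.3.3) on log2(FPKM + 1), which understates changes of low genes. The fit had a trended prior and experiment as a block, and was two-sided with Benjamini-Hochberg adjustment over all tested genes. The block follows the experiment numbers in the titles; deviations of same-numbered libraries correlated at 0.00238 across genes. The code was tested on simulated data. Replicates differed by more than sampling noise (chi-square per degree of freedom 23.04 for Cpeb4 and 4.97 for IgG).

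All 10 members were described. Of each role among other pathway genes, up to 2 called higher and 2 called lower with the smallest p were named, with the 3 nearest profiles of each group (Euclidean distance of centred log2(FPKM + 1), mean of at least 3). Members and lists were chosen with earlier results of these data known, so counts over them are descriptions. Of the members, Id4 alone overlapped another annotated gene, A330033J07Rik. Alternatives were other scalings and filters, a pseudocount of 0.1, no block, limma-voom on recovered reads, removal of a loess trend (span 0.5), each library left out, the authors' comparison and, added after seeing the data, a mean of at least 50 reads.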

Additional observations from a re-analysis of the deposited data

How the results depend on the processing

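Bmpr1a, Bmpr1b, Bmpr2, Smad4, Smad5 and Id4 kept direction and call under all 16 alternatives run. Members called higher numbered 8 in the fit reported and 6 to 8 over the alternatives. Members called lower numbered 0, but 2 with read totals (Id1 and Id3), 2 by upper quartile (Id1 and Id3) and 1 with the median of tested genes (Id1). Without the replicate block 8 members, 51 other pathway genes and 6007 genes in all were higher, and no member's call changed with the block.

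Id3 reversed to -0.39 with read totals, -0.32 by upper quartile, -0.15 with trimmed mean of M-values, -0.21 with the median of tested genes and -0.17 with the trend removed. Id1 ranged from -0.127 to 0.00685 with 1 library left out, above 0 without IgG replicate 1. The log2 ratio of Bmpr2 to Bmpr1b differed by 0.02 between antibodies and ranged from -0.122 to 0.16 with 1 library left out, below 0 without Cpeb4 replicate 2 or IgG replicate 2.

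Of all genes, 6106 were higher and 1822 lower. These counts were 2759 and 6670 with read totals, 3088 and 5821 by upper quartile, 4028 and 4024 with trimmed mean of M-values, 3718 and 4715 with the median of tested genes, 3915 and 875 with no filter, 3741 and 3971 with the trend removed, and 4920 and 1119 in the authors' deposited table. Leaving out 1 library gave 3977 to 6534 higher and 867 to 2497 lower, the fewest without IgG replicate 2 (942 lower without IgG replicate 1). Of the other pathway genes, 48 were higher and 3 lower. These counts were 22 and 14 with read totals, 26 and 12 by upper quartile, 33 and 7 with trimmed mean of M-values, 31 and 8 with the median of tested genes, and 30 and 11 with the trend removed. With 1 library left out they were 32 to 54 and 1 to 4. The block could not be kept there, and the lone library is assumed to vary like the complete pair. The cause of these changes was not tested. With 179 to 278 reads a library, Id1 is the member whose small changes the depth limits most.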
